A study of Mus musculus with 4 samples.

Results

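The 10 genes described here encode the transcription factors, sterol sensors and cholesterol exporters that govern lipid supply in mouse cells: Srebf1, Srebf2, Scap, Insig1, Insig2, Nr1h2, Nr1h3, Mlxipl, Abca1 and Abcg1. They were taken by name, out of 21631 protein-coding genes, and every accessible region that overlapped an mm10 RefSeq gene body or the 10 kb on either side of it was assigned to the gene. The 4 region lists held 53, 50, 39 and 44 such regions, in the order DN3 control, DN3 Scd1-deficient, naive CD4 control and naive CD4 Scd1-deficient. Merging regions that overlapped by at least 1 bp gave 62 joint regions for the 10 genes, of 90270 in the whole series. Each gene had at least 2 of them, and each had a region at an annotated transcription start or gene end in all 4 libraries.

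Sterol regulatory element-binding proteins (SREBPs) are made as membrane-bound precursors of the endoplasmic reticulum. When sterols are low, Scap escorts the precursor to the Golgi, where proteases release the active transcription factor, and when sterols are high the Insig proteins hold Scap and its cargo back. SREBP-2, from Srebf2, drives mainly cholesterol synthesis and uptake, and SREBP-1, from Srebf1, mainly fatty acid synthesis. The liver X receptors (LXRs), from Nr1h3 and Nr1h2, sense oxysterols and drive cholesterol export through Abca1 and Abcg1, while ChREBP, from Mlxipl, responds to glucose metabolites. Scd1, stearoyl-CoA desaturase 1, which makes monounsaturated fatty acids, is itself a target of SREBP-1, LXR and ChREBP, and in T cells these pathways are known for adjusting membrane lipid supply to growth.

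The series compares ATAC-seq libraries, in which the transposase Tn5 inserts adapters into open chromatin, from Scd1-deficient mice and littermate controls. One cell population was the DN3 thymocyte, an early T-cell precursor at the stage of T-cell receptor beta selection, depleted of other cells with magnetic beads and then sorted by flow cytometry as lineage-negative CD4-CD8-CD44-CD25+. The other was the naive CD4 T cell, isolated from spleen with a magnetic bead kit. All cells were untreated, and the sample titles mark the control libraries HZ, a code the labels do not explain. The labels name no allele, strain, age or sex, nor how many mice stand behind a library. Each genotype and cell type is 1 library, so no difference below has a replicate check or a p-value. Genotype, cell type and library cannot be told apart where only 1 library differs from the rest.

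Every region listed had a q-value below 0.05, and the 4 lists held 76814, 76437, 46576 and 51297 regions on chromosomes 1 to 19 and X. Strength is given in 2 ways: the deposited fold, which is the pileup at the summit over the local background, and the number of fragments at the summit, recovered from the deposited values. The unit of the pileup is called a fragment here, though the settings that define it are not stated. Intervals on fragment counts cover counting error only, and take these units as independent. Total read depth is unknown, and the lowest local background at any summit was 4.72, 4.47, 5.12 and 3.65 fragments in the 4 lists, so weak regions had a different chance of being listed in each library. Start regions of T-lineage markers separated the cell types only in part: 9 of 9 DN3 markers had one in both DN3 libraries and 6 of 9 in both naive libraries, with Ptcra, Rag1 and Rag2 called only in DN3, while 8 of 8 naive CD4 markers had one in all 4. Markers of B, myeloid and NK cells and of thymic epithelium and erythroid cells had start regions for 4 of 7, 3 of 6, 2 of 4 and 1 of 4 genes in each DN3 library and for 2 of 7, 3 of 6, 1 of 4 and 1 of 4 in each naive library. Among the open ones, Ebf1 (B cells; −log10 q of 141, 135, 20.4 and 32.9) and Cd14 (myeloid; 108, 84.1, 117 and 84.9) were called in all 4 libraries, as were Cd79b and Spi1. Blk (103 and 88.4) and Lyz2 (28.5 and 32.6) were called in both DN3 libraries only, and Itgam (42.3 and 33.4) in both naive libraries only. Ms4a1, Csf1r and Adgre1 had no start region in any library. The part of other cells in the results below was not tested.

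Regions of the 10 genes were mostly open in both cell types. Of the 62 joint regions, 35 (56.5%) were present in all 4 libraries, against 41.5% of all joint regions in the series. Regions present in both DN3 libraries and in neither naive library numbered 11 (17.7%, against 28.3%), and those present in both naive libraries and neither DN3 library numbered 2 (3.23%, against 5.11%), which leaves 14 with another pattern (22.6%, against 25.2%). The DN3 lists are the longer ones, and with every list kept to its 46576 strongest regions the DN3-restricted and naive-restricted counts were 5 and 4. The shares over all joint regions were not computed for equal lengths, so these counts have no background beside them. Near starts and away from them the members' share in all 4 libraries stood above that of all regions: 16 of the 17 member regions within 1 kb of any annotated start were in all 4 (94.1%, against 75.6% of such regions), and so were 19 of the 45 regions farther away (42.2%, against 35.1%). The DN3-restricted regions lay almost entirely away from starts, 10 of 45 (22.2%, against 30.9%), and Mlxipl held the single one of the 17 regions near a start (5.88%, against 14.3%). The naive-restricted regions were 2 of the 45 away from starts (4.44%, against 5.87%) and 0 of the 17 near them (against 1.03%). Between single libraries, 17 of 53 control DN3 regions (32.1%, against 47.2%) had no counterpart in control naive cells and 3 of 39 (7.69%, against 15.0%) the reverse. In Scd1-deficient cells these were 14 of 50 (28.0%, against 43.3%) and 8 of 44 (18.2%, against 16.0%).

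**Figure D1:**
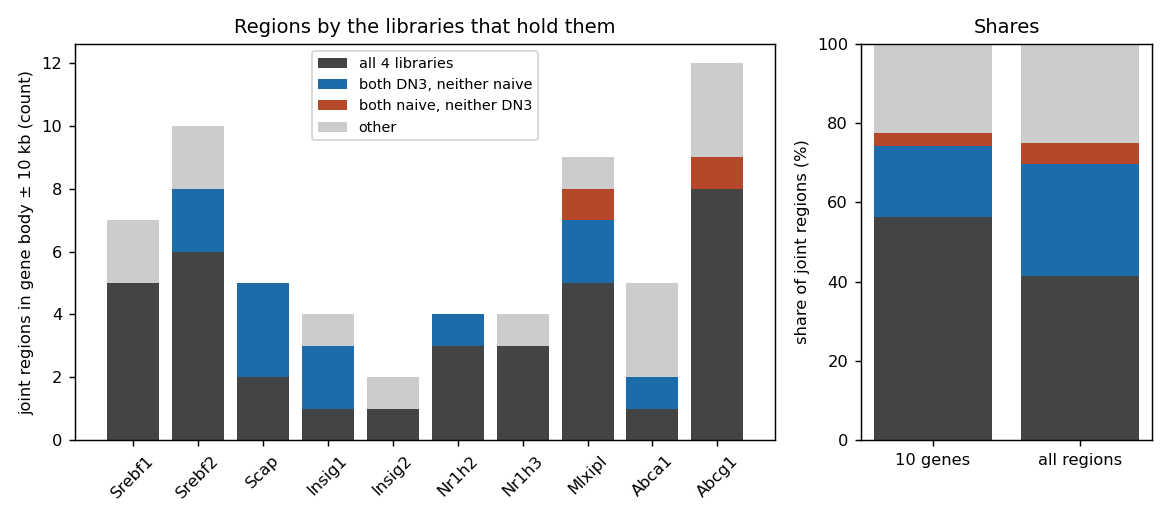
Left: number of joint regions in each gene body and its 10 kb flanks (vertical axis, count), split by the libraries that hold them. Right: the same split as a share (%) of the 62 regions of the 10 genes and of all 90270 joint regions, where the black share present in all 4 libraries is 56.5% and 41.5%.

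Between genotypes, few regions of the 10 genes were called in one library alone. In DN3 cells 7 of the 53 control regions had no overlapping region in the Scd1-deficient library (13.2%, against 10.4% of all control regions), and 4 of the 50 Scd1-deficient regions had none in the control (8.0%, against 9.48%). In naive cells 1 of 39 control regions had no counterpart (2.56%, against 5.77%), as did 6 of 44 Scd1-deficient regions (13.6%, against 12.4%). These shares lie near the series background, and 0 of the 10 genes had a start region in one genotype and not in the other. Over all protein-coding genes, such starts made up 0.929% for control DN3, 0.693% for Scd1-deficient DN3, 0.287% for control naive and 1.85% for Scd1-deficient naive cells. By −log10 q, the highest unmatched regions were at Srebf2 (27.3) and Abcg1 (13.2) in Scd1-deficient DN3 cells and at Abcg1 (19.7) in Scd1-deficient naive cells. In control DN3 cells the highest was an Abca1 region 49.1 kb inside the gene (8.38), and in control naive cells the single one, at Nr1h3, had 4.63.

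Strength also differed little between genotypes. A joint region was taken as shared by 2 lists when both had a region in it. For each shared region the log2 ratio of the folds was taken and the median over all shared regions of the series subtracted, and a region was counted as past 1.5-fold beyond that. In DN3 cells 0 of the 47 shared member regions passed in either direction, where 0.712% of all shared regions were higher and 1.54% lower in Scd1-deficient cells. In naive cells 0 of 38 passed, where 2.65% were higher and 1.15% lower. The subtracted median was 0.13 in naive cells, so uncentred folds were on the whole higher in the Scd1-deficient naive library, and −0.01 in DN3 cells. Of 35 member regions with a ratio in both cell types, 19 had opposite signs in DN3 and naive cells. By fragments instead of fold, a measure added after the data were seen, 1 region passed higher and 1 lower in DN3 cells (against 1.15% and 1.96%), and 3 passed higher and 0 lower in naive cells (against 5.24% and 1.86%).

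Between cell types the spread was wider. In control cells 2 of 36 shared member regions were past 1.5-fold higher in DN3 (5.56%, against 14.0%) and 2 were past it in the other direction (5.56%, against 9.95%). In Scd1-deficient cells 1 of 38 was higher in DN3 (2.63%, against 13.1%) and 1 lower (2.63%, against 10.3%). By fragments the counts were 8 and 8 of 36 in controls (22.2% each, against 30.6% and 19.8%) and 5 and 5 of 38 in Scd1-deficient cells (13.2% each, against 28.4% and 15.7%), so on this measure too the members' higher count stood below the background share. Fragments and fold part where the local background differs between the libraries. Some regions were past 1.5-fold between cell types by fragments and under it by fold, and 7 of 24 cell-type ratios at starts turned sign, among them those of Insig2, Abca1, Srebf2 and the Abcg1 end in controls.

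**Figure D2:**
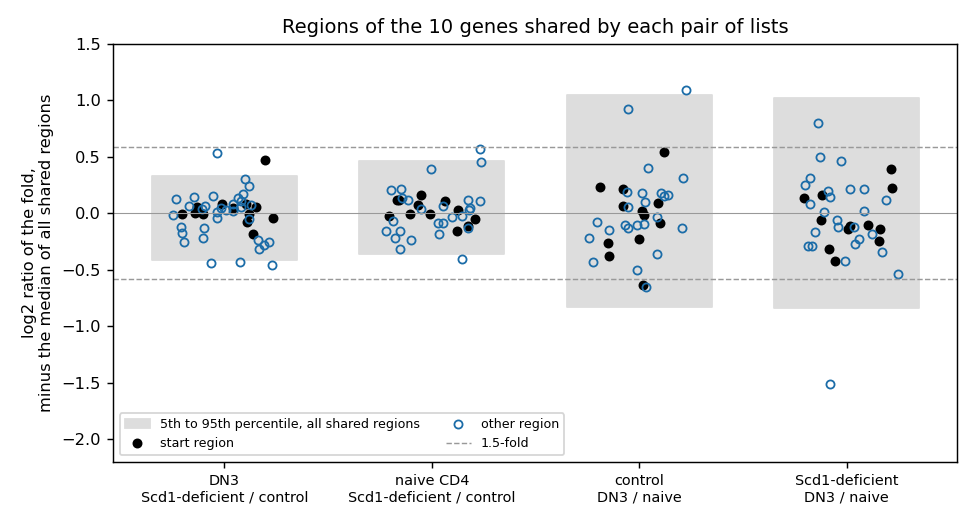
Each point is 1 joint region of the 10 genes with a region in both lists compared; the vertical axis is the log2 ratio of the deposited fold minus the median over all shared regions, the grey bar spans the 5th to 95th percentile of all shared regions and the dashed lines mark 1.5-fold. The members reach from −0.46 to 0.53 in the DN3 genotype comparison, where the highest point is an Abcg1 joint region whose 2 DN3 regions do not overlap, and from −0.41 to 0.57 in the naive one, while the cell-type comparisons reach from −0.65 to 1.09 in controls and from −1.51 to 0.80 in Scd1-deficient cells.

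Start regions of the 10 genes ranged from weak, at the upstream start of Mlxipl, to strong. The deposited fold lay between 5.14 and 14.5 at the 13 start regions, counting the lower annotated end of Abcg1, whose start and strand were not matched in the promoter table. The start region of Insig2 in the control DN3 library was the highest of these, and the Abcg1 end in the control naive library the lowest. For comparison, 56.6% of protein-coding genes had a start region in all 4 libraries, 7.28% in both DN3 and neither naive library, 0.236% in both naive and neither DN3 library, and 32.3% in none.

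**Figure D3:**
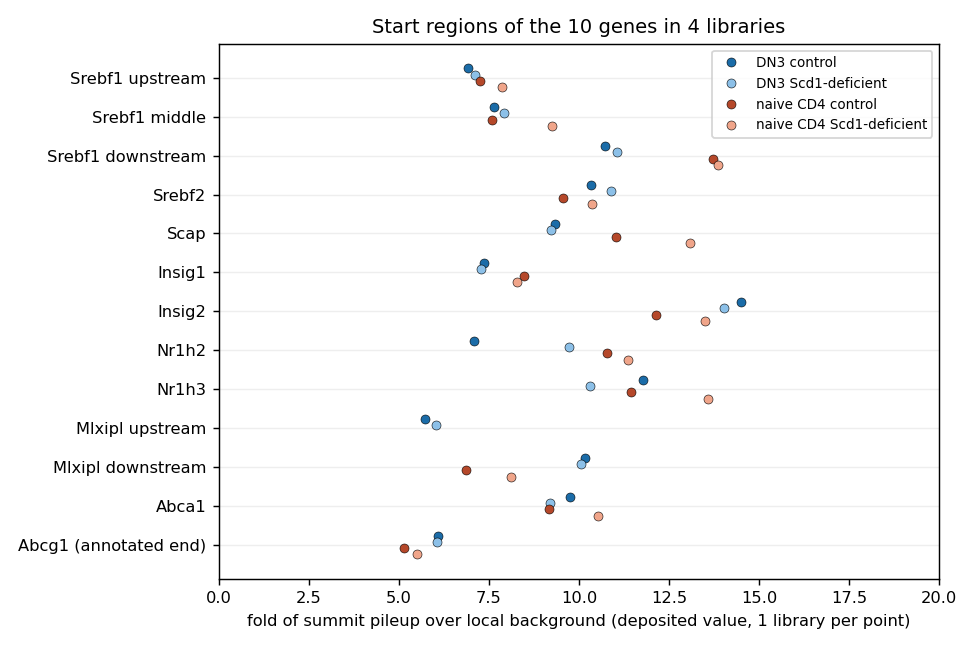
Deposited fold of summit pileup over local background (horizontal axis, no unit) at each start region of the 10 genes, 1 point per library. The 4 points of most starts lie close together; the Mlxipl upstream start has points for the 2 DN3 libraries only, and at Nr1h2 the control DN3 library (7.07) lies left of the other 3 (9.73 to 11.4).

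Srebf1 lies at chr11:60199084-60224186 (mm10, minus strand) and is annotated with 3 starts, each of which was open in all 4 libraries. The downstream start corresponds to the promoter of the SREBP-1c isoform, which in liver is the insulin- and LXR-responsive form. Its 250 bases are shown because this start had the highest fold of the 3, with the CCAAT box and the GC boxes in capitals (from RefSeq, GRCm38.p6, chr11:60210472-60210721, minus strand, written 5′ to 3′ and ending at the base before the start).
Srebf1 downstream start: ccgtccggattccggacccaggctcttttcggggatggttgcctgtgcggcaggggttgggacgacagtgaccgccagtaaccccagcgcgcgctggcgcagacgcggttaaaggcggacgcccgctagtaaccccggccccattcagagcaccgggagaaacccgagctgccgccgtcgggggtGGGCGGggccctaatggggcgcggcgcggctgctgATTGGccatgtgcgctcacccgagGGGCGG

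The region at that start, chr11:60209585-60211171, had folds of 10.7, 11.05, 13.7 and 13.9 in control DN3, Scd1-deficient DN3, control naive and Scd1-deficient naive cells. It held 412, 394, 636 and 465 fragments at the summit. Both naive values lay above both DN3 values, but the centred log2 ratios of DN3 over naive, −0.38 in controls and −0.24 in Scd1-deficient cells, did not reach 1.5-fold. The middle start (chr11:60219750-60220933) had folds of 7.65, 7.92, 7.58 and 9.26. The upstream start (chr11:60222490-60223325) had 6.93, 7.10, 7.24 and 7.87. At all 3 starts the genotype ratios stayed under 1.5-fold, and the highest fold was in the Scd1-deficient naive library.

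A further region inside Srebf1, 10 kb past its downstream start, chr11:60199716-60200490, had folds of 13.3, 12.1, 11.6 and 14.6, near those of the SREBP-1c start, but fewer fragments, 223, 206, 144 and 152. Its centred DN3 over naive ratio by fragments was 0.91 (0.60 to 1.22) in controls and 0.47 (0.16 to 0.78) in Scd1-deficient cells, against 0.18 and −0.18 by fold. The flanks of the gene held a region in all 4 libraries within the body of Tom1l2, with folds of 4.39, 3.86, 5.82 and 5.48. A weak region within Rai1 was called in both Scd1-deficient libraries and neither control, with folds of 2.38 in DN3 and 3.20 in naive cells on 27 and 17 fragments. A region of 276 bp, chr11:60212535-60212810, was listed in the control DN3 library alone, at a fold of 1.67.

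Srebf2 lies at chr15:82147269-82205379 (mm10, plus strand) and carries in an intron the hairpin of miR-33, a microRNA known for repressing Abca1. Its promoter is shown because the summit of the start region fell 157 bases before the start in all 4 libraries, inside the letters printed. Capitals mark the shorter sterol element TCACNCCA, which overlaps the summit, the CCAAT box and the GC boxes (RefSeq, GRCm38.p6, chr15:82147019-82147268, plus strand).
Srebf2: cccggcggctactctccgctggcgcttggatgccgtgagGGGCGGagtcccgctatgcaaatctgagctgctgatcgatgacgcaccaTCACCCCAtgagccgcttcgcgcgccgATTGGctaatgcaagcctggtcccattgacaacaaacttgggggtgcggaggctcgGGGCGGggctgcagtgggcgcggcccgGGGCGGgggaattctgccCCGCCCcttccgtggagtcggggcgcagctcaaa

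The Srebf2 start region, chr15:82146080-82148192, had folds of 10.3, 10.9, 9.55 and 10.3. Its summits held 563, 552, 797 and 576 fragments. The 4 folds lie within a range narrower than that of the SREBP-1c start. Among regions inside the gene, one 39.4 kb from the start (chr15:82186697-82187709) had folds of 9.28, 10.3, 11.7 and 13.1, and one 18.2 kb from it (chr15:82165424-82167357) had 6.46, 5.40, 6.51 and 6.70. By fragments both were past 1.5-fold lower in DN3 than in naive cells in each genotype, with centred log2 ratios between −0.63 and −0.83.

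The region over the Shisa8 start past the end of the gene, chr15:82211530-82213014, had folds of 5.32, 5.32, 4.63 and 4.75. By fragments (100, 83, 56 and 49) it was past 1.5-fold higher in DN3 than in naive cells, at 1.11 (0.63 to 1.61) in controls and 0.79 (0.27 to 1.33) in Scd1-deficient cells. A region 9.0 kb past the start, chr15:82156270-82157259, had 0.61 (−0.03 to 1.25) in controls on this measure.

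A region 7.8 kb before the start, within the body of Ccdc134, differed between cell types by fold. The joint region chr15:82138349-82139512 had folds of 11.6 and 12.3 in control and Scd1-deficient naive cells, on 140 (95% interval 118 to 165) and 124 (103 to 148) fragments. In Scd1-deficient DN3 cells a narrower region of 605 bp had a fold of 4.08 on 94 fragments (76.0 to 115), and the control DN3 library had none. The Scd1-deficient DN3 over naive log2 ratio was −1.51 by fold and −0.37 (−0.77 to 0.03) by fragments, the local background being 22.3 fragments in the DN3 library and 9.14 in the naive one. Of the Scd1-deficient DN3 regions with no control counterpart, 2.34% (170 of 7250) had a −log10 q at least as high as its 27.3. The next region, chr15:82140303-82140687, was called in both DN3 libraries (folds 5.49 and 5.32) and in neither naive one.

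The miR-33 hairpin (chr15:82198122-82198190) was covered by a region in both DN3 libraries and in neither naive library. The 2 mature arms are shown, from RefSeq (GRCm38.p6), with the seed, bases 2 to 8, in capitals, because the seed sets which messages a microRNA pairs with, and the 2 arms do not share one.
mmu-miR-33-5p: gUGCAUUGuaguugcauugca
mmu-miR-33-3p: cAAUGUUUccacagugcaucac

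The region over the hairpin, chr15:82197199-82198754, was weak, with folds of 4.27 and 4.34 in control and Scd1-deficient DN3 cells on 40 (28.6 to 54.5) and 35 (24.4 to 48.7) fragments. By −log10 q it stood at the 24.5th and 25.0th percentile of those lists, outside their 46576 strongest regions. Its summit lay before the hairpin, at 82197611, in the control library and after it, at 82198445, in the Scd1-deficient one. Accessibility over the hairpin says nothing of the amount of miR-33 made.

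Scap, the sterol-sensing escort of SREBP precursors, lies at chr9:110333288-110384949 (mm10, plus strand). Its start region, chr9:110333128-110334251, had folds of 9.32, 9.21, 11.03 and 13.1 in the 4 libraries, the naive values above the DN3 values. A region before the start, chr9:110329177-110330146, had folds of 4.74, 4.99, 4.36 and 3.83. The other 3 of its 5 regions were called in both DN3 libraries and in neither naive library.

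The strongest of these, chr9:110351782-110352623, lay 18.4 kb inside the gene and had folds of 15.0 and 15.3 in control and Scd1-deficient DN3 cells, on 216 (188 to 247) and 217 (189 to 248) fragments. Its fold exceeded that of the Scap start in the same libraries, but the start held more fragments, 426 and 391. The local background was 44.8 and 41.6 fragments at the start and 13.5 and 13.3 at this region. At this region the 2 genotypes agreed within counting error. The region 11.7 kb inside, chr9:110345038-110345649, had folds of 7.34 and 5.30 on 41 (29.4 to 55.6) and 28 (18.6 to 40.5) fragments, a centred log2 ratio of −0.46 by fold and −0.45 (−1.19 to 0.28) by fragments. That interval reaches from well below to above no difference. The third, past the end of the gene in the body of Ptpn23, had folds of 7.05 and 5.20.

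Insig1, which retains Scap in the endoplasmic reticulum and is itself induced by SREBPs, lies at chr5:28071412-28078662 (mm10, plus strand). Its 250 bases are shown, with the E-box CACGTG, the CCAAT box and the GC boxes in capitals (RefSeq, GRCm38.p6, chr5:28071162-28071411, plus strand), because the region at this start was the only one of the gene shared by all 4 libraries.
Insig1: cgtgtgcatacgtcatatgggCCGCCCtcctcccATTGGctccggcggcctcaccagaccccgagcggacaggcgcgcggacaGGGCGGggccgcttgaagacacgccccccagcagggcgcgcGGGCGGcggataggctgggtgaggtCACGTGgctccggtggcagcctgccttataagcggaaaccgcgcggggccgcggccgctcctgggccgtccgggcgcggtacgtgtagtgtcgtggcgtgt

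The Insig1 start region, chr5:28070137-28072400, had folds of 7.36, 7.28, 8.46 and 8.28 and held 372, 318, 795 and 503 fragments. Fragments were past 1.5-fold lower in DN3 than in naive cells on the centred scale, at −0.82 in controls and −0.63 in Scd1-deficient cells, while the folds were not. In naive cells the Scd1-deficient over control log2 ratio was −0.16 by fold and −0.34 (−0.50 to −0.17) by fragments, short of 1.5-fold on both. A region 6.8 kb before the start, chr5:28063451-28064640, was called in the DN3 libraries alone, with folds of 10.8 and 13.2 on 168 (144 to 195) and 182 (157 to 210) fragments. A second DN3-restricted region, 13.2 kb after the start, had folds of 7.30 and 7.17. A naive Scd1-deficient region of 13 fragments, at a fold of 3.01, was the sole other region of the gene. All 4 lie in or across the body of the overlapping gene Gm35223, so their target gene is not given by position.

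Insig2, the second Insig, lies at chr1:121304353-121332662 (mm10, minus strand) and had 2 joint regions, or 0.414 per 10 kb, against a median of 0.684 over protein-coding genes. Its start region, chr1:121327105-121328479, spans the downstream and middle of 3 annotated starts and had folds of 14.5, 14.0, 12.1 and 13.5. These held 480, 458, 876 and 641 fragments. The control DN3 over naive ratio was 0.23 by fold and −0.59 (−0.75 to −0.43) by fragments, so the 2 measures order the cell types differently. No library had a region within 1 kb of the most upstream start, at 121332589, whose promoter window is 46.0% G and C against a median of 53.0% over all promoters. The other region was listed in the Scd1-deficient DN3 library alone, on 21 fragments and a fold of 4.02.

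**Figure D4:**
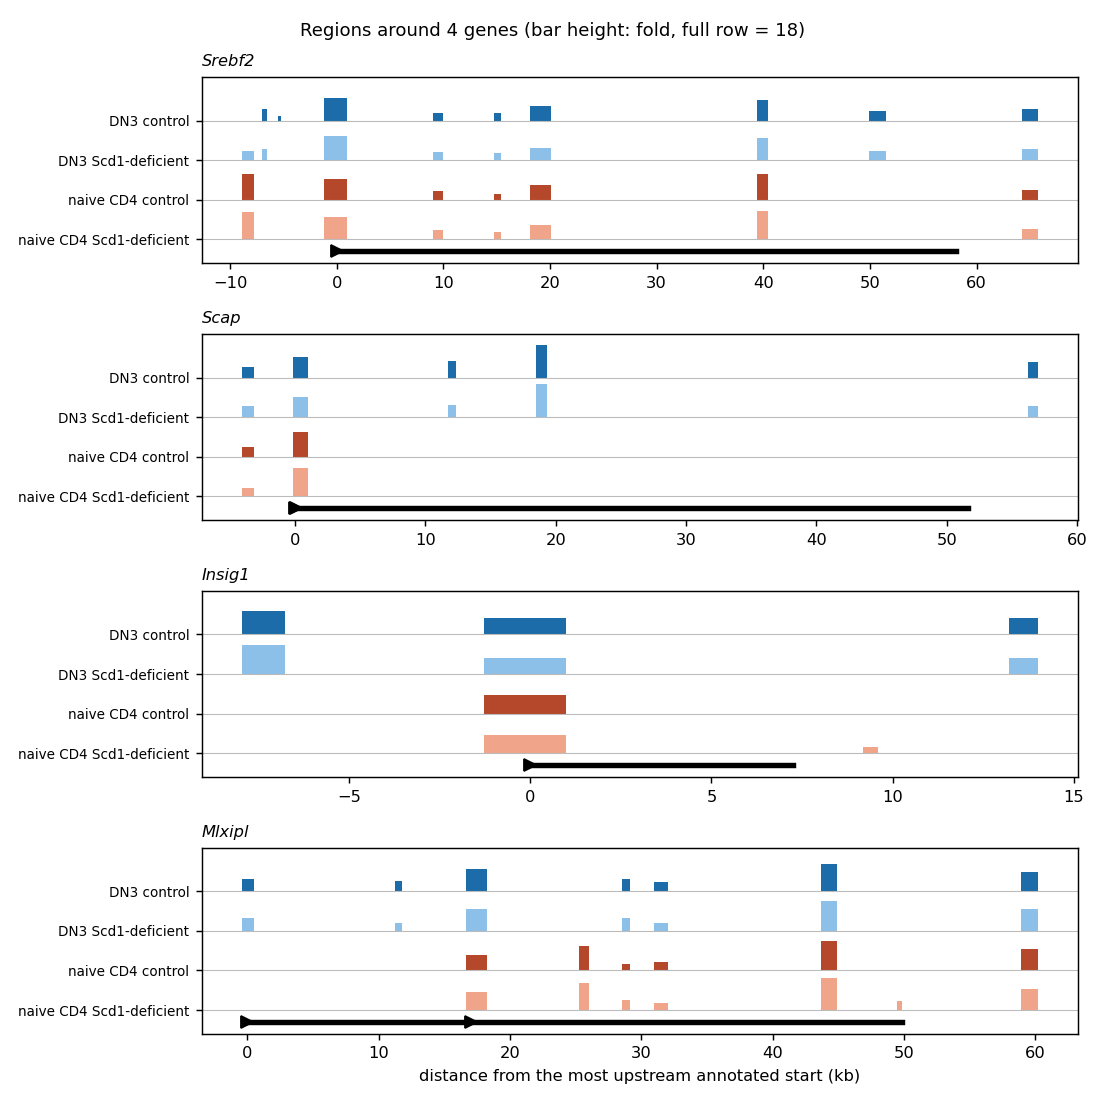
Joint regions around Srebf2, Scap, Insig1 and Mlxipl by distance from the most upstream annotated start (horizontal axis, kb); bars span the joint region, bar height is the deposited fold in that library (a full row is 18), the black line is the gene body and arrowheads mark starts with a region. DN3 bars without naive partners stand inside Scap and on both sides of Insig1, and naive bars stand alone 25.7 kb from the upstream start of Mlxipl.

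The LXR genes had open starts in all 4 libraries. Nr1h2, which encodes the widely expressed LXR beta, lies at chr7:44549616-44553968 (mm10, minus strand). Its promoter, 50.7% G and C, carries no GC box, CCAAT box, E-box or sterol element of those searched. It has 6 matches to the core of ETS factors (CCGGAAG on either strand). The matches 3 to 9 and 6 to 12 bases after the start overlap on opposite strands, so the 6 are not all separate sites. Of the 6, 3 lie before the start and are in capitals (RefSeq, GRCm38.p6, chr7:44553966-44554215, minus strand). The promoter is shown because ETS cores are the only searched motif in it, and 8.92% of all promoters have at least 1.
Nr1h2: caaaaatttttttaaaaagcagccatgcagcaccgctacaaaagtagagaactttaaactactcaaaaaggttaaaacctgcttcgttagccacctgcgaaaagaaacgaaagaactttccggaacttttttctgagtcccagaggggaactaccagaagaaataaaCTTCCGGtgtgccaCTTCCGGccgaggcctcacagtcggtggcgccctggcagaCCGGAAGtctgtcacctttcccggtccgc

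The Nr1h2 start region, chr7:44553191-44554438, had folds of 7.07, 9.73, 10.8 and 11.4. The control DN3 library was the lowest, and this was the start with the largest genotype ratio of fold in DN3 cells, 0.47 on the centred log2 scale. The fragments at the summit were 434, 419, 661 and 526, a DN3 genotype ratio of 0.05 (−0.14 to 0.25). The summit of the control DN3 region lay 352 bases after the start, over a local background of 60.5 fragments, and that of the Scd1-deficient DN3 region 32 bases after it, over 42.2. It was also the only start past 1.5-fold between cell types by fold, at −0.63 for DN3 over naive in controls, where fragments gave −0.33 (−0.51 to −0.15) and Scd1-deficient cells −0.14 by fold.

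A region 6.7 kb before the Nr1h2 start, chr7:44560698-44561642, had folds of 15.0, 15.2, 13.2 and 16.8, the highest of the gene. It held 105, 108, 80 and 90 fragments, a control DN3 over naive ratio of 0.67 (0.24 to 1.11). The region at the start of its neighbour Pold1 had folds of 7.33, 7.60, 10.2 and 9.84. Inside Pold1 a weaker region was called in both DN3 libraries only, with folds of 4.13 and 3.75.

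Nr1h3, which encodes LXR alpha, the form prominent in liver and macrophages, lies at chr2:91184061-91202829 (mm10, minus strand). Its start region, chr2:91194324-91195344, had folds of 11.8, 10.3, 11.4 and 13.6, with the summit 308 bases after the downstream of its annotated starts, 91195035, in all 4. It held 165, 121, 134 and 131 fragments, fewer than the 434, 419, 661 and 526 at Nr1h2. The DN3 genotype ratio was −0.19 by fold and −0.34 (−0.69 to 0.00) by fragments. A weak region inside the gene, chr2:91190567-91190955, was called in both controls and neither Scd1-deficient library, with folds of 2.08 and 2.39 on 29 and 38 fragments. At least 66.1% of the unmatched regions of each control list were as strong or stronger. Away from the start, the region with the highest fold, chr2:91202358-91203444, covers the start of the neighbour Acp2 and had folds of 14.5, 15.8, 15.9 and 18.7. The one with the most fragments, chr2:91182350-91184267 over the Madd start, held 462, 441, 920 and 613 at folds of 8.59, 8.84, 8.11 and 8.06. Its control DN3 over naive ratio was 0.06 by fold and −0.72 (−0.88 to −0.55) by fragments. None of the searched motifs fell in the Nr1h3 promoter windows.

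Abca1, which exports cholesterol to lipid-poor apolipoproteins, lies at chr4:53030789-53159988 (mm10, minus strand) and is sparsely marked, with 5 joint regions or 0.335 per 10 kb. Its start region, chr4:53158561-53160599, had folds of 9.76, 9.18, 9.18 and 10.5 in the 4 libraries. It held 179, 178, 357 and 341 fragments, so that naive cells had more fragments at a nearly equal fold, with centred fragment ratios of DN3 over naive of −0.72 in controls and −0.90 in Scd1-deficient cells, against 0.07 and −0.11 by fold. A region 70.5 kb inside the gene was called in both DN3 libraries only, with folds of 5.77 and 4.93. The remaining 3 regions were called in some libraries of a cell type and not in others. Of these, chr4:53121643-53122444 was called in both DN3 libraries (4.20 and 4.93) and in Scd1-deficient naive cells (3.01), and its DN3 over naive ratio in Scd1-deficient cells was 0.80 by fold and 1.03 (0.02 to 2.12) by fragments.

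Abcg1, which passes cholesterol to mature lipoprotein particles, lies at chr17:31057694-31117984 (mm10) and held the most joint regions of the 10 genes, 12, or 1.49 per 10 kb. Of these 8 were in all 4 libraries. The region over its lower annotated end, chr17:31057296-31059381, had folds of 6.07, 6.04, 5.14 and 5.50. Its control DN3 over naive ratio was 0.22 by fold and −0.54 (−0.73 to −0.34) by fragments. The next region, chr17:31060574-31061433, had −0.10 by fold and −0.84 (−1.06 to −0.62) by fragments. The highest fold of the gene was at the other side, at chr17:31118997-31120049, with 11.8, 12.4, 10.4 and 12.4. Inside the gene, chr17:31066808-31067726 had 7.54, 8.11, 7.81 and 9.37. A region of 890 bp, chr17:31082119-31083008, was called in both naive libraries (folds 4.55 and 4.21 on 167 and 118 fragments) and in neither DN3 library.

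Some Abcg1 regions differed between the genotypes, though no shared one passed 1.5-fold by fold. At chr17:31121687-31122391 the folds were 6.93, 5.68, 3.20 and 5.20, with the control naive library the lowest. The naive genotype ratio there was 0.57 by fold and 0.85 (0.25 to 1.46) by fragments, and the control DN3 over naive ratio was 1.09 by fold while the Scd1-deficient one was 0.21. At chr17:31088888-31090276 the folds were 3.39, 4.87, 5.23 and 7.48, higher in the Scd1-deficient library of each cell type (0.53 in DN3 and 0.39 in naive by fold, 0.59 (−0.19 to 1.39) and 0.86 (0.17 to 1.57) by fragments). There the DN3 regions of the 2 genotypes do not overlap each other and are joined only through the naive ones, so the DN3 ratio compares different bases. A region of 381 bp, chr17:31110187-31110567, was called in Scd1-deficient naive cells alone, at a fold of 7.52 on 34 fragments (23.5 to 47.5). Of the regions of that library with no control counterpart, 10.2% (650 of 6346) had a −log10 q at least as high.

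Mlxipl showed the clearest division between the cell types at a start. It lies at chr5:135089890-135139768 (mm10, plus strand), with an upstream start at 135089890 and a downstream start at 135106891. The 250 bases before each are shown because the 2 starts differed in which libraries opened them. Capitals mark the E-box, CCAAT box and GC boxes before the upstream start, and the sterol element TCACNCCAC and the RUNX core TGTGGT (on either strand) before the downstream one (RefSeq, GRCm38.p6, chr5:135089640-135089889 and chr5:135106641-135106890, plus strand). The upstream window is 69.3% G and C and the downstream one 56.0%.
Mlxipl upstream start: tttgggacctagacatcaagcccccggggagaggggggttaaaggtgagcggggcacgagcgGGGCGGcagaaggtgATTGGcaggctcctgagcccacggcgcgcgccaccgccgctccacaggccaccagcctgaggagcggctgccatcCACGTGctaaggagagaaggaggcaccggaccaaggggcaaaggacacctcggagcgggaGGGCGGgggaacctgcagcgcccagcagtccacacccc
Mlxipl downstream start: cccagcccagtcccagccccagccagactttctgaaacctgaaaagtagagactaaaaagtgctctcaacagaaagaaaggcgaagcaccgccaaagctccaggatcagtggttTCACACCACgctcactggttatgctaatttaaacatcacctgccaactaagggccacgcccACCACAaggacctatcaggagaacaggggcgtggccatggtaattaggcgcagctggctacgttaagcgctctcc

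The upstream start region, chr5:135089458-135090371, was called in both DN3 libraries, with folds of 5.72 and 6.03 on 34 (23.5 to 47.5) and 32 (21.9 to 45.2) fragments, and in neither naive library. It is a weak start: its −log10 q of 15.3 in each library stood at the 28.6th and 31.8th percentile of all regions of those lists, whereas the median start region stood at the 89.2nd and 89.3rd. That rank lies outside the 46576 strongest regions of either DN3 list, so with equal list lengths no library had a region at this start. By distance over the 4 percentile ranks, a rule applied to this start after its values were seen, lipid genes like it included Me1 (15.2) and Pklr (16.9), each with a start region in both DN3 libraries and none in naive cells.

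The downstream start region, chr5:135106567-135108145, was called in all 4 libraries with folds of 10.2, 10.05, 6.87 and 8.11. Its summits held 213 (185 to 244), 190 (164 to 219), 70 (54.6 to 88.4) and 75 (59.0 to 94.0) fragments. The DN3 intervals lie wholly above the naive ones, and the genotypes overlap within each cell type. The centred DN3 over naive log2 ratio was 1.88 (1.49 to 2.29) by fragments in controls and 1.37 (0.98 to 1.78) in Scd1-deficient cells, but 0.54 and 0.39 by fold, since the local background was also higher in DN3 (20.04 and 18.01 fragments) than in naive cells (9.33 and 8.37).

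Inside the gene the contrast ran the other way at one region. The 738 bp at chr5:135115177-135115914, 8.3 kb after the downstream start, were called in both naive libraries, with folds of 10.9 and 12.5 on 172 (147 to 200) and 173 (148 to 201) fragments, and in neither DN3 library. Nearby, chr5:135118424-135119072 was called in all 4 with folds of 5.83, 6.03, 3.02 and 4.53, a control DN3 over naive ratio of 0.93 and a Scd1-deficient one of 0.50. By fragments these were 0.66 (0.12 to 1.21) and −0.15 (−0.68 to 0.38), so the direction in Scd1-deficient cells turned with the measure. The naive genotype ratio there was 0.46 by fold and 0.69 (0.15 to 1.24) by fragments. A region at chr5:135120892-135121965 had control and Scd1-deficient DN3 over naive ratios of 1.08 (0.39 to 1.81) and 0.87 (0.02 to 1.77) by fragments and of 0.19 and 0.31 by fold. Past the gene, the region over the Tbl2 start had −0.69 (−0.83 to −0.55) by fragments and −0.13 by fold in controls. In DN3 cells the weak region chr5:135101170-135101687 had a genotype ratio of −0.44 by fold and −0.61 (−1.44 to 0.20) by fragments. The region chr5:135133601-135134833 had folds of 12.6, 13.8, 13.5 and 14.5 and did not separate the cell types. A 243 bp region at the distal end of the gene was called in Scd1-deficient naive cells alone, on 19 fragments and a fold of 4.30.

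**Figure D5:**
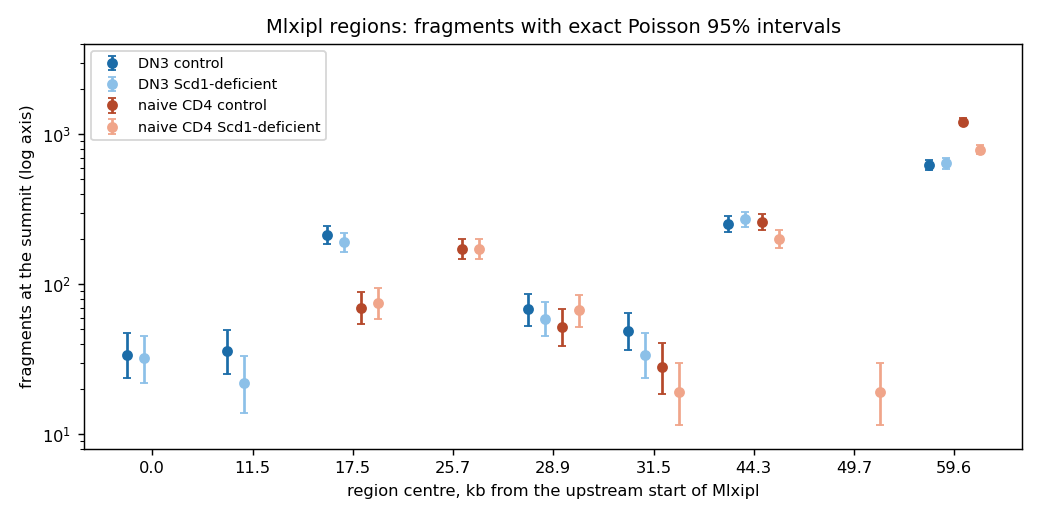
Fragments at the summit (vertical log axis) of each Mlxipl region, ordered by the distance of its centre from the upstream start (horizontal axis, kb, not to scale); points are libraries and bars exact Poisson 95% intervals. At 17.5 kb, the downstream start, the DN3 libraries hold 213 and 190 fragments and the naive libraries 70 and 75, and at 25.7 kb only the naive libraries have a region, with 172 and 173.

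The motif searches covered 300 bases around each start, from 250 before to 50 after it, on both strands. The sterol element TCACNCCAC was found only at the Mlxipl downstream start among the 16 member starts, 136 to 128 bases before it, and in 1.25% of all 32619 promoters. The shorter form TCACNCCA, added after the values were seen, occurs in 4.39% of promoters and also lies 162 to 155 bases before the Srebf2 start. The E-box CACGTG (7.20% of promoters) occurred at Scap, Insig1, Abca1 and the Mlxipl upstream start. The RUNX core TGTGGT (16.6%) occurred 75 to 70 bases before the Mlxipl downstream start, CCAAT is in 37.6% of promoters and GGGCGG in 35.9%. The LXR repeat, AGGTCA and AGGTCA with any 4 bases between them, was not matched in any member window, nor with up to 2 mismatches, a form found in 3.03% of promoters. Elements with more mismatches, or outside the 300 bases, were not searched. The absence of a match therefore does not show that a start lacks an LXR element, the Srebf1 downstream start included. A match describes letters and not a bound site.

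Genes that act with these regulators, or downstream of them, were mostly open at the start in both cell types. Of 76 genes in 6 lists, 68 had a start region in each DN3 library and 61 in each naive library: 61 in all 4, 7 in DN3 alone and 8 in none. These patterns held for 56.6%, 7.28% and 32.3% of all protein-coding genes. In these full lists no gene had a start region in one genotype and not in the other. Among all protein-coding genes such starts made up 0.929%, 0.693%, 0.287% and 1.85% in the 4 libraries. Over all protein-coding genes the shares with a start region were 66.7%, 66.4%, 57.2% and 58.8%. With every list kept to its 46576 strongest regions, 65, 63, 61 and 60 of the 76 genes had one. The share over all genes was not computed for that setting. All 10 genes of SREBP processing and turnover were open in all 4 libraries. Of 23 sterol targets of SREBP-2, 21 were open in all 4.

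Of 17 fatty acid targets of SREBP-1, 12 were open in all 4 libraries, and Acacb (−log10 q of 29.4 and 32.3) and Me1 (26.5 and 17.9) in DN3 alone. Scd1 was open in all 4, with −log10 q of 75.8, 50.8, 25.0 and 19.05, lower in the Scd1-deficient library of each cell type; the labels do not say which bases the allele lacks, so this is no check of the deletion. Of 5 LXR partners and corepressors, 4 were open in all 4 and Rxrg, a partner of LXR, in DN3 alone, with −log10 q of 94.5 and 99.5, the highest of the 7 DN3-restricted starts. Of 11 LXR targets 7 were open in all 4 and Abcg8 (5.65 and 10.3) and Lpl (12.2 and 5.35) in DN3 alone. Of 10 ChREBP partners and targets, 7 were open in all 4 and Pklr, the liver and red cell pyruvate kinase, in DN3 alone (24.3 and 23.9). No gene of the 6 lists was open at its start in naive cells alone, a pattern that only 0.236% of all protein-coding genes had. When gene ends were also counted, a choice made after the values were seen, Acaca gained a region in all 4 libraries and Lpin1 in both DN3 libraries, Fgf21 gained one in control DN3 cells, Me1 in both naive libraries and Pklr in Scd1-deficient naive cells.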

How the data were processed

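ATAC-seq was measured in 4 libraries, 1 per group, and the authors deposited 1 narrowPeak list per library. Per the submitters' processing notes, reads were trimmed with Trimmomatic, aligned to mm10 with BWA and regions called with MACS2; versions, settings, duplicate removal and any Tn5 shift are not stated there. The deposited values, per the files' narrowPeak columns, are a score, a fold (a ratio of summit pileup to local background), a −log10 p and a −log10 q. From the fold and −log10 p the whole fragment number at each summit was recovered within 0.05 fragments. Regions on chromosomes 1 to 19 and X were joined at 1 bp of overlap and assigned to RefSeq genes (GRCm38.p6, the patch release of mm10) with 10 kb flanks. A start region lies within 1 kb of a start in the RefSeq promoter table, which held 9 of the 10 genes (16 starts); Abcg1 and other genes without an entry used both annotated ends. Exons and introns were not annotated here. Log2 fold ratios were centred on the median of all shared regions and counted past 1.5-fold. Fragment intervals are exact Poisson, and ratio intervals exact Clopper-Pearson, both at 95%. Since each group is a single library, differences were described and not tested. Named by rule were, per member, the start region, regions of 1 genotype alone with a −log10 q of at least 10 (or the strongest), the strongest region of 1 cell type and the strongest away from the start, and pathway genes whose start call differed; other regions were named after their values were seen. The members and lists were chosen with earlier results of these data known. Alternatives for the counts were a −log10 q minimum of 5 or 10, equal list lengths, a stricter overlap, and other gene and start windows. Alternatives for the ratios were −log10 q or fragments in place of the fold, no centring, and the region nearest to the start. Calculations used Python 3.11.15, numpy 2.4.6, pandas 2.3.3 and scipy 1.17.1, and were tested on simulated lists. Some genes of the lists are not reported here.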

Additional observations from a re-analysis of the deposited data

How the results depend on the processing

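With 1 library per group and −log10 q limited by depth, regions near the threshold made up part of the counts in 1 library alone, to a different degree in each list. Shares over all regions were not computed for the alternatives, so the counts below have no background beside them. Regions of the 10 genes in control DN3 cells without a Scd1-deficient counterpart went from 7 to 3 at a −log10 q of at least 5, 2 at 10, 2 with each list kept to its 46576 strongest regions and 16 with 50 kb flanks. Those in Scd1-deficient DN3 cells went from 4 to 3 at a −log10 q of at least 5 and stayed at 3 at 10. They were 1 with equal list lengths, 2 in the gene body alone and 13 with 50 kb flanks. In control naive cells 1 became 0 at 10, 2 with equal lengths and 2 with 50 kb flanks. In Scd1-deficient naive cells 6 became 2 at 5, at 10 and with equal lengths. Regions in both DN3 and neither naive library went from 11 to 5 with equal lengths, 6 in the gene body and 36 with 50 kb flanks, and the naive counterpart from 2 to 4 with equal lengths. The DN3-restricted regions lost with equal lengths included the Mlxipl upstream start and the region over the miR-33 hairpin. Start regions past 1.5-fold in controls went from 0 higher and 1 lower in DN3 to 2 and 3 by −log10 q and to 1 and 3 by fragments, and in Scd1-deficient cells from 0 and 0 to 1 and 2 by either. The cause was not tested. Both genotype contrasts of start regions had 0 past 1.5-fold under every alternative run. Pathway genes with a start region went from 68, 68, 61 and 61 in the 4 libraries to 65, 63, 61 and 60 with equal list lengths. Under every alternative these counts stayed within 1.5 times, a limit that 76 genes leave little room to pass. Of 196 alternative values of single start regions, 154 stayed within their interval, and 42 moved further (20 by −log10 q, 22 by fragments). Of the 154, 49 took the region nearest to the start, which left the values as they were. Another 49 dropped the centring, which only shifts every ratio of a contrast by 1 constant. By −log10 q 29 of 49 stayed within the interval, and by fragments 27 of 49. The sign turned in 26 of the 196, all of them ratios under 1.5-fold as reported: 7 of 24 cell-type and 3 of 25 genotype ratios by fragments, 6 and 3 by −log10 q, and 1 and 6 without centring. No paired analysis was possible because each group is 1 library.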
